A study of Mus musculus with 6 samples.

Results

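The leukocyte integrins and their ligands on vessel walls were read in lymph nodes of mice with knockouts of Rag2 and of perforin (labelled Rag2/pfp KO) and in lymph nodes of wild-type mice. The set was chosen by gene symbol in the platform annotation and holds 10 genes in 3 roles. Itgal, Itgb2, Itgb7, Itga4 and Itgae were grouped as the lymphocyte integrins, although the Itgb2 chain is shared with myeloid cells. Itgam and Itgax encode the chains typical of myeloid cells, and Icam1, Icam2 and Vcam1 encode the ligands. Of these 10 genes, 9 had at least 1 probe on the array under that symbol, with 14 of the 25697 probes between them. No probe carried the symbol Itgal, so the alpha chain of LFA-1 was not analysed here. After the detection filter described with the first results, 11 probes for 7 genes could be tested.

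Integrins are heterodimers of an alpha and a beta chain that carry leukocytes from rolling to firm arrest on a vessel wall. The beta chain encoded by Itgb2 (CD18) joins the Itgal product to form LFA-1, the Itgam product (CD11b) to form Mac-1, or the Itgax product (CD11c), and these dimers bind ICAM proteins. The beta chain encoded by Itgb7 joins the Itga4 product to form the gut-homing receptor for MAdCAM-1, or the Itgae product (CD103), which holds T cells and dendritic cells to E-cadherin on epithelium. VCAM-1 is the ligand of the integrins that hold the Itga4 chain, ICAM-2 is present on resting endothelium, and ICAM-1 is induced there by inflammatory signals. In a lymph node, lymphocytes crossing the high endothelial venules use LFA-1 on ICAM-1 and ICAM-2.

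Each group had 3 arrays, numbered 1 to 3 in the labels, with total RNA of whole lymph node on Illumina Mouse Ref-8 v2 BeadChips. Rag2 is needed to rearrange antigen receptor genes, so that its loss leaves mice without mature T and B cells, and perforin, released by killer cells, makes pores in the membrane of target cells. The labels give no strain, age, sex or node position, and they name no agent for either group. They do not say that the replicates were separate animals, so the p-values cover array-to-array spread, part or all of which may be technical.

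RefSeq promoter sequences (GRCm38.p6) were at hand for 5 of the 10 genes. The 250 bases before the start are shown for 1 gene of each role, to place the measured genes in the genome and to show which short motifs of known immune factors occur there. The motifs searched on both strands were GAGGAA (PU.1 type), TGTGGT (RUNX core) and GGNNNTTCC (NF-kappaB type). Capitals mark the matches, and all 3 sequences run 5′ to 3′ on the strand of the gene.
Itgb7, chr15:102231936-102232185, minus strand: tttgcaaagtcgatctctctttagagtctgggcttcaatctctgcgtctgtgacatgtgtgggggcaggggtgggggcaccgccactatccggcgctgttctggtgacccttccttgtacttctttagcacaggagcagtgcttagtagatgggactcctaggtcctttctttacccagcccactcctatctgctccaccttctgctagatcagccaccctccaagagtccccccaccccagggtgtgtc
Itgam, chr7:128062390-128062639, plus strand: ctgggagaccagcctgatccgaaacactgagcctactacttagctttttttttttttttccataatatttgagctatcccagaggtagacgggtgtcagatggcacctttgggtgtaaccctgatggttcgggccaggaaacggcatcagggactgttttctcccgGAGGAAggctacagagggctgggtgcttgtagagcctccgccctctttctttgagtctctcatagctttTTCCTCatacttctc
Icam1, chr9:21015690-21015939, plus strand: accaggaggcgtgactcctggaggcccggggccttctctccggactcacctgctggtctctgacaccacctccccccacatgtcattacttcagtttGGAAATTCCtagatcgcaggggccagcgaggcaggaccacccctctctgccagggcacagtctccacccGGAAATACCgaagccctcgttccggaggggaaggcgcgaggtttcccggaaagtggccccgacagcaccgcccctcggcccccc
The Itgam window held GAGGAA at 2 places, 84 and 15 bases before the start, counted from the first base of each match. The Icam1 window held GGNNNTTCC at 2 places, 153 and 84 bases before the start, the second on the opposite strand. The Itgb7 window held none of the 3. Over all 32851 promoters of the table, 23.3% held GAGGAA in the same window, 14% held TGTGGT and 15.7% held GGNNNTTCC. A match is a run of letters and not a measured binding site, and no binding data belong to this series.

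The arrays were alike in detection, with 51.3% to 56.3% of probes above background (a detection p-value under 0.05). For the targeted genes, Rag2 was at background on all 6 arrays, and the 2 Prf1 probes differed by 0.35 and -0.14 on the log2 scale (adjusted p = 0.439 and 0.804, limma). The sources used here do not say where these probes lie relative to the deleted parts, so they do not check the genotypes. Lymphocyte markers separated the groups on every array: 7 of 7 tested T cell genes and 6 of 6 tested B cell genes were lower in the knockout. Of all tested genes, 17.3% were called lower. The normalized levels of the T cell list, summed on the linear scale, were 708 to 1830 in the knockout and 21800 to 28800 in wild type, and those of the B cell list 1030 to 1480 and 37100 to 55600, with Cd79a, Ms4a1 and Fcmr below background on every knockout array and Pax5 below it on all 6 arrays. Wild-type replicate 2 stood apart from the other wild-type arrays. Its summed level of the salivary gland list was 341000, against 2440 and 4140 on the wild-type replicates 1 and 3 and 273000 to 568000 on the knockout arrays, and the epithelial list gave 15100, against 302 and 410, and 6490 to 17400. The limma test called 3 of 14 gland genes, higher in the knockout, and 0 of 5 epithelial genes, against 27.5% of all tested genes. Results are therefore also given without this array, against it alone, and with the mean of the gland genes as a covariate, and the part of the gland transcripts in any result was not tested.

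None of the 7 tested genes passed the test between the genotypes. Itgb2 was the nearest to the threshold, 1.9-fold lower in the knockout, whereas the changes of Itgb7 and Itgae were -0.19 and 0.08 on the log2 scale, on arrays where the T and B cell markers were far lower. Among the ligands, Vcam1 lay 1.76-fold higher, Icam1 slightly higher and Icam2 slightly lower, and each of the 3 intervals (95%) held 0. Probes above background on at least 3 of the 6 arrays were fitted with limma on the normalized log2 scale, as knockout minus wild type, and adjusted by Benjamini-Hochberg over all 14378 probes, each gene being represented by its tested probe of highest mean. At an adjusted p under 0.05, 0 of the 7 genes were called, against 27.5% of all 9973 tested genes. At an unadjusted p under 0.05, 1 of the 7 passed, against 4304 of the 9973. In 1 of the 7, Itgb2, no knockout array overlapped a wild-type array, against 47.4% of all genes. Counted by probe, 0 of the 11 tested member probes were called, against 28.6% of all tested probes, and 1 of the 11 had groups without overlap, against 48.2%. The median change of the 7 was -0.01 and that of all tested genes 0.03, with quartiles of -0.50 and 0.55.

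**Figure D1:**
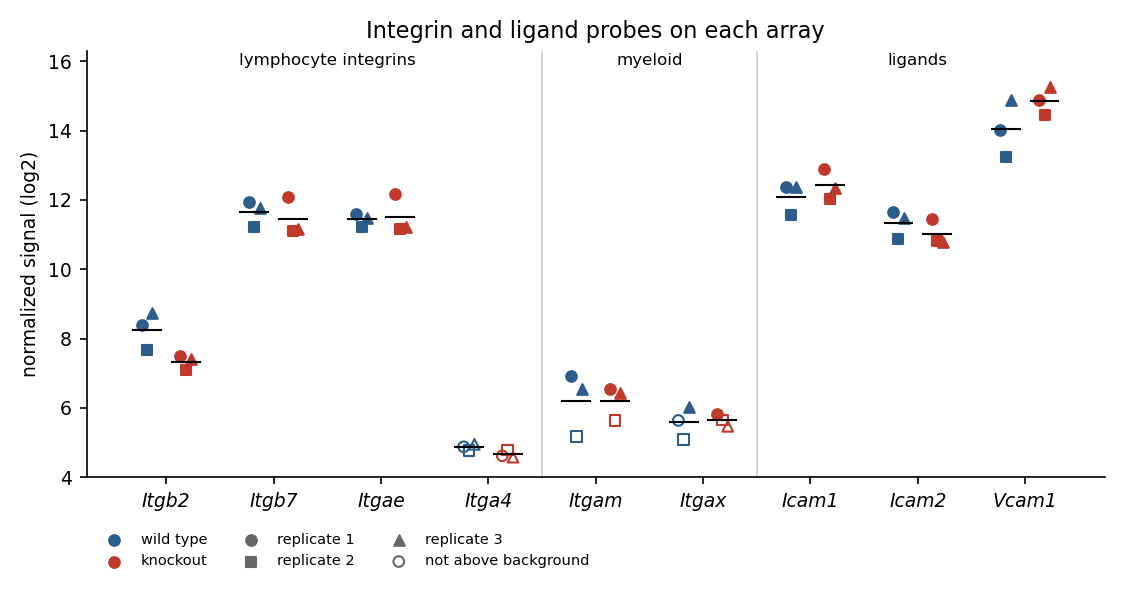
Normalized log2 signal of 1 probe for each of the 9 genes with a probe (for Itgae, the brightest of 6) on each array, with wild type in blue, knockout in red, a marker shape per replicate number and a black line at each group mean of 3 arrays. Open symbols are not above background. Only for Itgb2 do the 2 groups not overlap, and the blue square of wild-type replicate 2 is the lowest wild-type symbol of each gene.

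Itgb2 encodes the shared beta chain of LFA-1 and Mac-1. Its scanner signal was 247.4, 187.1 and 238.2 on the knockout arrays and 494.2, 343.5 and 602.4 on the wild-type arrays, in the order of replicates 1 to 3. After normalization these were 7.5, 7.10 and 7.40 against 8.39, 7.67 and 8.73, or 7.33 ± 0.21 against 8.26 ± 0.54 (SD, n = 3 each). Every knockout array lay below every wild-type array, and the nearest was wild-type replicate 2. The log2 change was -0.93 (SE 0.30, 95% confidence interval -1.64 to -0.22), with an unadjusted p of 0.0186 and an adjusted p of 0.0593 by limma, short of the threshold. Without wild-type replicate 2 the change was -1.23 (adjusted p = 0.00542), which passed, and against that array alone it was -0.34 (adjusted p = 0.416). With the gland mean as a covariate it was -0.16 (adjusted p = 0.68). Neutrophils carry much CD18, and their summed marker level was 7840 to 23400 on the knockout arrays and 159000, 9680 and 45700 on wild-type replicates 1, 2 and 3. Among the wild-type arrays, replicate 2 was the lowest in both, replicate 1 was the highest in the neutrophil sum and replicate 3 the highest in Itgb2. Of 9 tested neutrophil genes, 1 was called lower in the knockout, against 17.3% of all tested genes. The part of neutrophils in the Itgb2 result was not tested.

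Itgb7 encodes the beta chain of both gut-associated integrins. Its signal was 4527, 1868 and 2258 on the knockout arrays and 4319, 2587 and 3977 on the wild-type arrays. The normalized values were 12.09, 11.10 and 11.17 against 11.95, 11.22 and 11.76. The highest value of all was a knockout array, the other knockout arrays were the lowest, and the groups overlapped. The change was -0.19 (SE 0.33, 95% confidence interval -1 to 0.62, adjusted p = 0.679), an interval that leaves room for a fall to 0.5 of the wild-type level or a rise to 1.53 times it. The sign of this small change turned when the gland mean was a covariate (0.50) or wild-type replicate 2 was the lone control (0.24).

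Itgae encodes CD103 and was read by 6 probes, 5 of them tested. The brightest had signals of 4749, 1974 and 2325 on the knockout arrays and 3390, 2629 and 3335 on the wild-type arrays. Normalized, these were 12.16, 11.17 and 11.22 against 11.58, 11.23 and 11.49. As with Itgb7, knockout replicate 1 was the highest array and the other knockout arrays lay just under the wild-type range. The change was 0.08 (SE 0.30, 95% confidence interval -0.64 to 0.80, adjusted p = 0.853). The 5 tested probes ran from -0.34 to 0.09 with adjusted p-values of 0.33 to 0.853, and their signs differed. The sixth probe was dim, detected on 2 wild-type arrays and no knockout array, with signals of 111.6, 78.86 and 97.75 against 199.5, 202 and 159.8. Without a filter its change was -0.85 (adjusted p = 0.101, limma), a value that rests on knockout signals below background. Its wild-type mean of 5.83 was close to the lowest detected log2 signals of the knockout arrays (5.74, 5.93 and 5.74). The size of a fall can therefore not be read from this probe. Since the 6 probes target 2 RefSeq accessions (NM_008399 and NM_172944), they need not read the same transcripts.

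Itga4 encodes the alpha-4 chain, the partner of the Itgb7 chain in gut homing and of the Itgb1 chain in VLA-4. Its only probe was not well above background on any array, with detection p-values of 0.322 to 0.984 in 3 knockout and 3 wild-type arrays. The signal was 75.45, 85.18 and 74.21 in the knockout and 149.4, 125.9 and 142.5 in wild type, and the wild-type arrays had higher scanner signals in general (array medians of 191.5 to 206.7 against 134.1 to 143.5). No difference was detectable with this probe, and nothing follows from it about the level of the chain.

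The myeloid alpha chains were measured near the limit of the array. Itgam had signals of 165.1, 119.8 and 161.3 on the knockout arrays and 266.7, 148.8 and 226.6 on the wild-type arrays. It was above background on 2 arrays of each group, and replicate 2 was below it in both. The normalized values were 6.54, 5.64 and 6.43 against 6.91, 5.18 and 6.55, which overlapped, and the change was -0.01 (SE 0.49, 95% confidence interval -1.19 to 1.18, adjusted p = 0.994). It became -0.52 (adjusted p = 0.212) without wild-type replicate 2, 0.99 (adjusted p = 0.172) against that array alone, and 1.36 with the gland covariate (adjusted p = 0.0404). With each of the 6 arrays left out in turn, the change ran from -0.52 to 0.34, so no direction can be given for Itgam. Markers of macrophages and monocytes summed to 26200 to 38700 on the knockout arrays and 20400 to 43000 on the wild-type arrays. Wild-type replicate 2 had the lowest sum. Of 7 tested genes of that list, 3 were called higher in the knockout, against 10.2% of all tested genes.

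Itgax, the chain found on most dendritic cells, had too few detections for the test. Its signal was 131.1, 120 and 120.1 in the knockout and 186.4, 144.7 and 194 in wild type, with 1 array of each group above background. On the log2 scale they were 5.82, 5.65 and 5.47 against 5.64, 5.09 and 6.04, so that the knockout values lay inside the wild-type range, and without a filter the change was 0.05 (adjusted p = 0.913). In the dendritic cell marker list, 4 of the 7 tested genes were higher in the knockout and 3 were not called. Of all tested genes, 10.2% were called higher. The summed level of the dendritic cell list was 11800 to 19200 in the knockout against 4070 to 6640 in wild type. Its brightest tested gene, Fscn1, had means of 13.46 in the knockout and 11.63 in wild type and weighs most in the sum. The Itgax probe was too near background to be set against these values.

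Icam1 encodes the main ligand of LFA-1 and Mac-1. Its signal was 7939, 3555 and 4964 on the knockout arrays and 5700, 3238 and 5968 on the wild-type arrays. The normalized values were 12.90, 12.02 and 12.35 against 12.36, 11.56 and 12.36. The groups overlapped, with knockout replicate 1 the highest and wild-type replicate 2 the lowest. The change was 0.33 (SE 0.32, 95% confidence interval -0.44 to 1.11, adjusted p = 0.446), and it was 0.07 without wild-type replicate 2 and 1.12 (adjusted p = 0.0523) with the gland covariate.

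Icam2 is the ligand found on resting endothelium. Its signal was 2921, 1520 and 1727 on the knockout arrays and 3540, 2071 and 3283 on the wild-type arrays. Normalization gave 11.45, 10.80 and 10.78 against 11.66, 10.87 and 11.47. Knockout replicate 1 lay within the wild-type range and the other knockout arrays just below it. The change was -0.33 (SE 0.29, 95% confidence interval -1.02 to 0.37, adjusted p = 0.407), and the sign turned against wild-type replicate 2 alone (0.13) and with the gland covariate (0.34). When limma weighted the arrays by their quality, the change was -0.58 with an adjusted p of 0.0426.

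Vcam1, the ligand of the alpha-4 integrins, also marks the stroma of lymph nodes. Its signal was 29160, 21420 and 31940 on the knockout arrays and 16870, 10280 and 32220 on the wild-type arrays. On the normalized log2 scale they were 14.89, 14.44 and 15.25 against 14.01, 13.25 and 14.88. Wild-type replicate 3 was as bright as the knockout arrays, so the groups overlapped. The change was 0.82 (SE 0.44, 95% confidence interval -0.24 to 1.87, adjusted p = 0.193). It was 0.41 (adjusted p = 0.362) without wild-type replicate 2, 1.64 (adjusted p = 0.0579) against that array alone, and 1.81 (adjusted p = 0.0446) with the gland covariate. Of the blood endothelial markers, 9 of 9 had positive changes and 1 was called, near the 10.2% of all tested genes called higher. Their summed level was 26400 to 39200 in the knockout and 17000 to 25600 in wild type. Whether this moved the ligands was not tested.

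**Figure D2:**
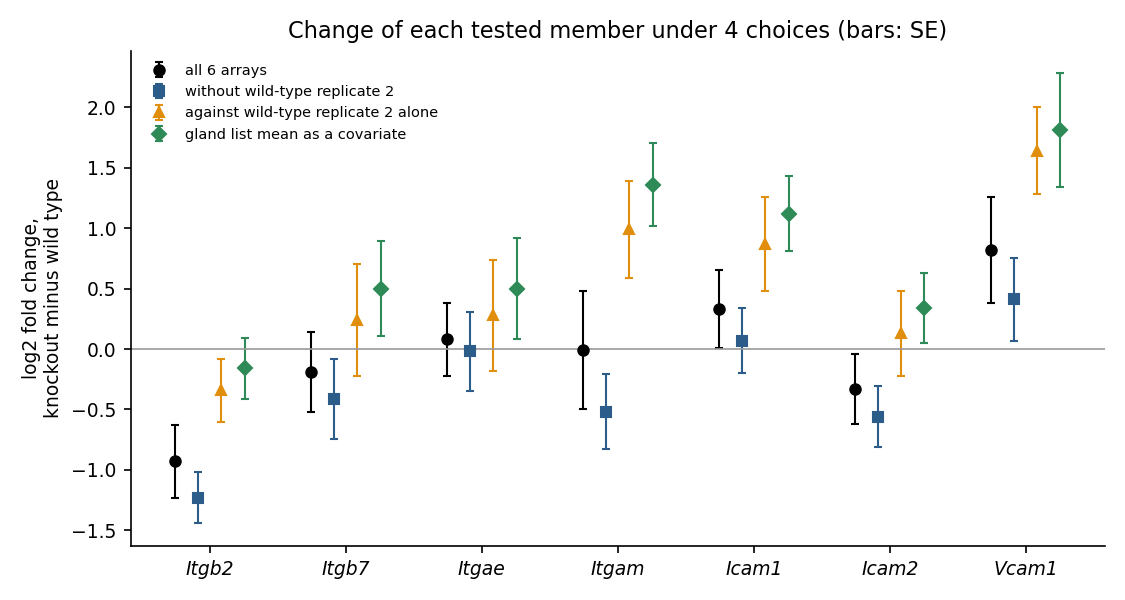
Log2 fold change, knockout minus wild type, with its standard error, for the 7 tested genes with all 6 arrays (black), without wild-type replicate 2 (blue), against that array alone (orange) and with the gland list mean as a covariate (green). Itgb2 stays below 0 in all 4, Vcam1 and Icam1 stay above 0, and Itgb7, Itgae, Itgam and Icam2 change sign.

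The probes that represent the members tended to vary together from array to array. Wild-type replicate 2 was the lowest wild-type array for 7 of the 7 tested genes, and for 52.4% of all 9973 tested genes. Of the tested Itgae probes, only the dimmest went the other way, with 7.48 on wild-type replicate 2 against 6.78 and 7.44 on replicates 1 and 3. Among the knockout arrays, replicate 1 was the highest for 6 of the 7 genes and replicate 2 the lowest for 6 of the 7, against 42.2% and 37.6% of all genes. Such a shift cancels in the difference between 2 genes on the same array only where it has the same size in both. For Itgam minus Itgb2 the SD was 0.28 in the knockout and 0.51 in wild type, against 0.21 and 0.54 for Itgb2 alone. For Itgae minus Itgb7 it was 0.01 and 0.20, against 0.56 and 0.18 for Itgae alone. The shift thus cancelled only in part.

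Partner chains were compared by their difference on each array, each relative to its own wild-type mean. The Itgam value exceeded the Itgb2 value by 1.09, 0.59 and 1.08 on the knockout arrays and by 0.57, -0.44 and -0.13 on the wild-type arrays. The difference of their changes was 0.92 (exact permutation test over arrays, two-sided, p = 0.1), and no knockout array overlapped a wild-type array. Itgam was detected on only 2 arrays of each group. Itgae exceeded Itgb7 by 0.28, 0.28 and 0.26 on the knockout arrays and by -0.16, 0.22 and -0.06 on the wild-type arrays. Itgae was represented here by its brightest probe. The 5 tested Itgae probes changed by -0.34 to 0.09, on both sides of the -0.19 of Itgb7, so the sign of the difference depends on the probe. With the brightest probe the difference of changes was 0.27, again without overlap and with an exact permutation p of 0.1. With 3 arrays against 3, 0.1 is the smallest p that this test can give, and it was also the value after adjustment over the 2 pairs. With the gland mean as a covariate, Itgam changed by 1.36 and Itgb2 by -0.16, and Itgae and Itgb7 by 0.50 each. With wild-type replicate 2 as the lone control, the values were 0.99 and -0.34, and 0.28 and 0.24. The brightest Itgae probe and Itgb7 thus had nearly the same change in both of these fits. The other tested Itgae probes ran from -0.56 to 0.51 with the gland covariate and from -0.59 to 0.30 with the lone control, so this too depends on the probe.

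The 3 tested chains of the lymphocyte group were also set against lymphocyte markers, whose changes were far larger. Of these chains, that of Itgb2 is shared with myeloid cells. Cd3e, which encodes CD3 epsilon on T cells, fell by 5.13 on the log2 scale (SE 0.45, adjusted p = 0.00227). Cd79a, which encodes the Ig-alpha signalling chain on B cells, was above background on no knockout array and at least 101-fold lower there (adjusted p = 0.000157). Relative to Cd3e, the change was 4.20 higher for Itgb2, 4.94 higher for Itgb7 and 5.21 higher for Itgae. These marker pairs were chosen with the values known, so the differences are a description without a test. In whole tissue, fewer cells of a type and less RNA per cell cannot be told apart. Of 5 NK cell marker genes, 1 was called higher and 0 lower in the knockout, against 10.2% and 17.3% of all tested genes. The summed levels of the NK list were 6040 to 11400 in the knockout and 4570 to 9040 in wild type.

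**Figure D3:**
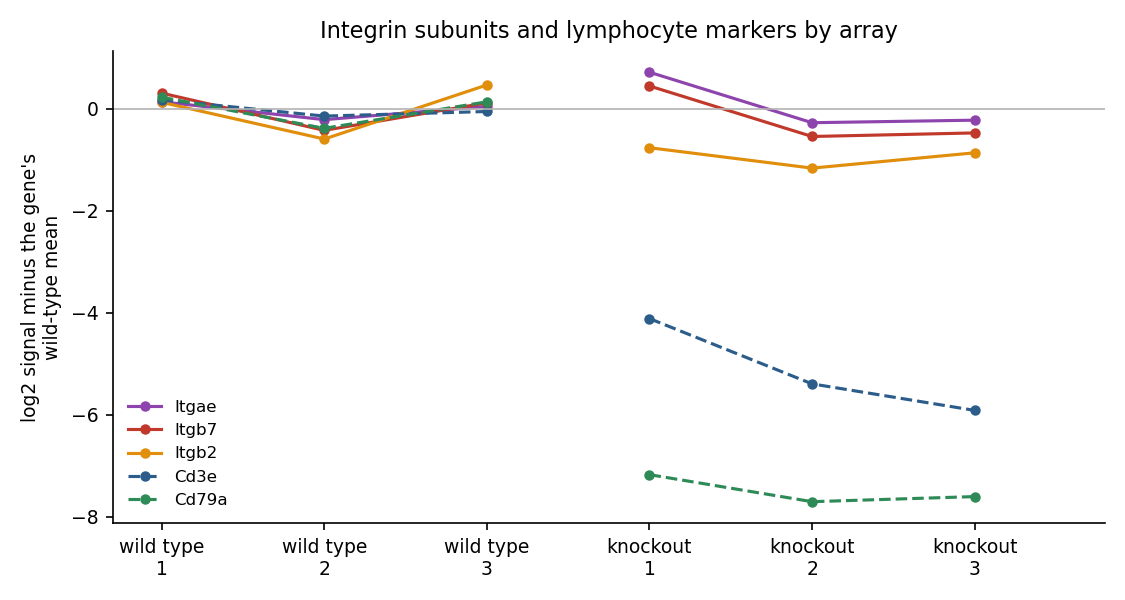
Log2 signal of Itgae, Itgb7 and Itgb2 (solid lines) and of the T cell marker Cd3e and B cell marker Cd79a (dashed lines) on each array, relative to the mean of the same gene over the 3 wild-type arrays. On the knockout arrays Itgae and Itgb7 lie on either side of 0, Itgb2 lies below 0 on all 3, and Cd3e and Cd79a lie several log2 units lower.

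Other genes of the adhesion pathway were taken from 4 lists of 70 genes in all, of which 51 could be tested. Together, 8 were lower and 6 higher in the knockout, against 17.3% and 10.2% of all tested genes. The other integrin subunits and the intracellular regulators of integrin activation, a list that holds both activating and inhibiting proteins, had their calls mainly in opposite directions. Among 15 tested subunits 3 were higher and 0 lower (median change 0.96), and among 25 tested regulators 8 were lower and 2 higher (median -0.50). No test compared the lists.

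Among the other subunits, Itga2b, the alpha chain of the platelet fibrinogen receptor, rose 2.32-fold (log2 change 1.22, SE 0.35, adjusted p = 0.0448), from 9.62, 8.64 and 9.93 in wild type to 10.81, 10.65 and 10.38. Itga5, the alpha chain of the fibronectin receptor, rose 2.12-fold (1.08, SE 0.23, adjusted p = 0.0178), from 7.72, 7.02 and 7.41 to 8.59, 8.23 and 8.56. Both of the probes of each gene were called. Itgb1, the beta chain of the broad family of matrix receptors and the other partner of the alpha-4 chain, rose 1.78-fold by its brighter probe (0.83, SE 0.20, adjusted p = 0.025), while its second probe gave -0.18 (adjusted p = 0.606). These 3 chains are not restricted to leukocytes. Some markers of other cell types were also higher on the knockout arrays. Of 5 tested adipocyte genes, 4 were called higher (summed levels of 19900 to 23900 against 12000 to 15400). Of 7 fibroblast genes, 2 were called higher, and the summed levels overlapped (33900 to 47800 against 27800 to 42800). Of 9 endothelial genes, 1 was called higher, near the 10.2% of all tested genes. The part of these cell types in the subunit values was not tested. Itgb6, an epithelial chain, had a change of 3.5 that was not called (adjusted p = 0.143), with 9.30, 11.42 and 10.50 in the knockout, 10.75 on wild-type replicate 2, and 4.94 and 5.01 on the other wild-type arrays, the same split of arrays as the gland genes. The count of higher subunits was 7 without wild-type replicate 2 and 0 without knockout replicate 1 or 3.

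Among the regulators detected in both groups, the 3 largest falls were those of Lpxn, Stk4 and Rasgrp1. Lpxn, which encodes the paxillin relative leupaxin, was 2.81-fold lower (log2 change -1.49, SE 0.34, adjusted p = 0.0232), with 11.75, 10.65 and 10.93 in the knockout and 13, 12.25 and 12.56 in wild type. Stk4, which encodes the kinase Mst1 that acts with RAPL on LFA-1, fell by 1.36 (SE 0.24, adjusted p = 0.0108), from 13.75, 13.10 and 13.36 to 12.38, 11.81 and 11.93. Rasgrp1, an exchange factor downstream of the T cell receptor, fell by 1.13 (SE 0.28, adjusted p = 0.0295). The other 5 lower genes, named after their values were seen, were Rap1b (the GTPase that switches integrins on, -0.89, adjusted p = 0.0106), Rassf5 (RAPL, -0.86, adjusted p = 0.0443), Vcl (vinculin, -0.65, adjusted p = 0.0291), Sharpin (an inhibitor of integrin activation, -0.50, adjusted p = 0.049) and Rasgrp2. Rasgrp2, the Rap1 exchange factor also called CalDAG-GEFI, was below background on all 3 knockout arrays and at least 1.15-fold lower there (adjusted p = 0.0178). The T cell markers were low on the same arrays, and the part of lymphocyte content in these values was not tested.

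Rapgef3, the cAMP-driven Rap1 exchange factor Epac1, rose by 1.39 (SE 0.36, adjusted p = 0.0334), and Pxn, the adaptor paxillin, rose by 1.10 (SE 0.23, adjusted p = 0.0175). Leupaxin and paxillin thus moved in opposite directions, each by 1 tested probe (of 3 Pxn probes, 1 could be tested). Each was called in 2 of the 6 fits that left out an array. The Rapgef3 change was 0.56 (adjusted p = 0.335) with the gland covariate and 0.79 (adjusted p = 0.253) with wild-type replicate 2 as the lone control, while Pxn was 1.63 (adjusted p = 0.0132) and 1.51 (adjusted p = 0.0418). The lower count depended on the arrays: it was 13 without wild-type replicate 2, 2 without any 1 of knockout replicates 2 and 3 and wild-type replicates 1 and 3, and 0 when the gland mean was a covariate or when wild-type replicate 2 was the lone control. Of all 14 called pathway genes, Rap1b and Stk4 were called whichever array was left out.

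F11r, which encodes the tight-junction protein JAM-A, a ligand of LFA-1, was the only one of 9 tested other ligands to pass (log2 change 1.11, SE 0.29, adjusted p = 0.0329), with 10.44 on wild-type replicate 2 against 9.66 on each of the other wild-type arrays. It was called in 1 of the 6 fits that left out an array, the one without wild-type replicate 2. With the gland covariate it was 0.39 (adjusted p = 0.328), and with that array as the lone control 0.59 (adjusted p = 0.277). A count of 1 in 9 is near the 10.2% of all genes called higher. Cdh1, the E-cadherin bound by CD103, had a change of 2.25 (SE 1.20, adjusted p = 0.192). Its values were 9.92, 11 and 10.96 in the knockout, 11.3 on wild-type replicate 2, and 6.9 and 6.92 on the other wild-type arrays. This is the same split of arrays as that of the gland genes. Madcam1, the ligand of the gut-homing integrin, had a change of 0.13 (SE 0.59, adjusted p = 0.877). Of the selectin genes, neither Selp (-0.46, adjusted p = 0.507) nor Selplg (0.72, adjusted p = 0.122) was called, and Sele was not above background.

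**Figure D4:**
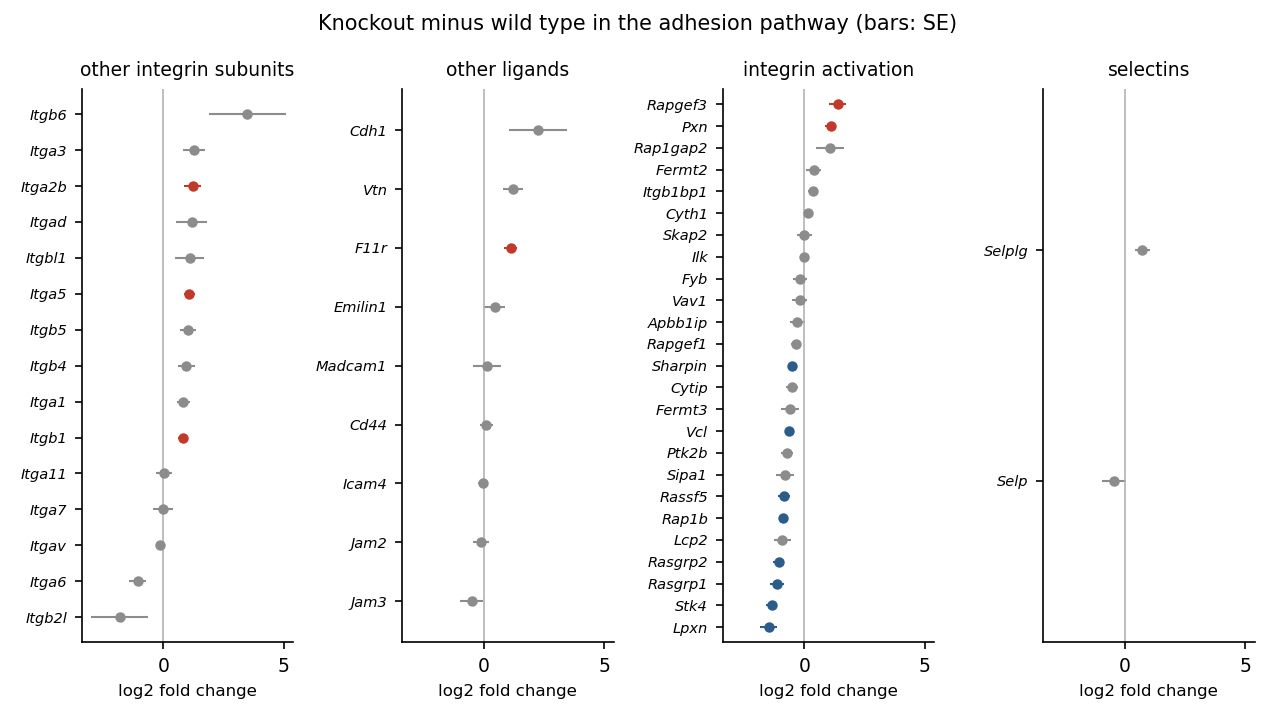
Log2 fold change, knockout minus wild type, with its standard error, of each tested gene in the 4 pathway lists. Red marks the 6 genes called higher, blue the 8 called lower and grey those not called; 11 of the 15 other subunits lie above 0 and 19 of the 25 regulators of integrin activation below it.

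The genes with array profiles nearest to each member were found from the root mean square difference of mean-centred log2 values over the 6 arrays, among all tested genes. Icam2 had the closest neighbours, Cd86 at 0.046 and Pfn1 at 0.048, against its own range of 0.88. Itgb7 was nearest to Hsph1 (0.067) and Elovl6 (0.068), and Icam1 to Havcr2 (0.077) and H2-Eb1 (0.079). Vcam1 was nearest to Serpina3n (0.063) and Wnt2 (0.13), and Itgae to Mettl7b (0.083) and Msx1 (0.1). Itgb2 was nearest to Utp15 and Rtn4rl1 (both 0.09). Itgam had the least close neighbours, Gpr141 at 0.12 and Cd80 at 0.15. With 6 arrays and 9973 genes, such closeness describes these arrays only.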

How the data were processed

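Total RNA of lymph node, 3 arrays per genotype, was measured on Illumina Mouse Ref-8 v2 BeadChips. The authors deposited non-normalized signal intensity per probe, together with a detection p-value per probe and array, deposited beside each intensity; the submitters' processing notes name GenomeStudio 2011.1. The authors also deposited log2 values, which differed by at most 5e-07 from quantile-normalized log2 intensities without background correction; they were used as an alternative.

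Intensities were background-corrected by normexp with detection p-values, offset by 16, quantile-normalized and put on the log2 scale (neqc, limma 3.58.1, R 4.3.3). Each of the 14378 probes with a detection p under 0.05 on at least 3 of 6 arrays entered a two-sided limma fit (lmFit, eBayes) with Benjamini-Hochberg adjustment over all. Fold changes of dim probes are shrunk by the offset. The number of arrays limits the precision. A probe not above background in 1 group has only a bound, from the higher of its own signal and the lowest detected signal on each array. Gene names come from the platform annotation. Summed marker levels add normalized values on the linear scale. Alternatives were the deposited log2 table, an offset of 50, 2 other detection filters, array weights, a replicate block, the gland mean as a covariate and each array left out; the comparison with wild-type replicate 2 alone was added after seeing the data.

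The members and gene lists were chosen with earlier results of these data known. Named genes were all member probes, up to 3 called genes per direction from each pathway list and the 2 nearest profiles per member. Of the 13 marker lists only counts, summed levels and the first-listed gene were used by rule. Ms4a1, Fcmr, Pax5, Fscn1, Cdh1, Madcam1, Itgb6 and the selectin genes were named after their values were seen. In the mast cell list 1 of 4 tested genes was called higher, and in the stromal list 2 of 10 were called higher and 2 lower. The shares of all tested genes were 10.2% higher and 17.3% lower.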

Additional observations from a re-analysis of the deposited data

How the results depend on the processing

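The numbers of called probes (4119), called members (0) and called pathway genes (8 lower, 6 higher) rested on the arrays and on the model. With array weights they were 7968, 2, 17 and 16, and with the gland covariate 2672, 2, 4 and 10. Wild-type replicate 2 as the lone control left 958 called probes and 0 lower pathway genes, in a fit in which the lone array is assumed to vary like the others. Leaving out 1 array gave 1805 to 6294 probes, 0 to 1 members, 2 to 15 lower and 0 to 13 higher pathway genes, the highest of each without wild-type replicate 2. The deposited log2 table, the other offset and the other filters kept every one of these counts within 1.5 times. The 2 members called were Itgb2 and Icam2 with weights, and Itgam and Vcam1 with the gland covariate.

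Of 153 alternative values for the 11 member probes, 20 reversed, 6 kept their sign and passed the threshold that the reported value did not, and 127 did neither. Among the reversed values, that of Itgam with the gland covariate also passed the threshold (adjusted p = 0.0404, limma). With the gland covariate the reversed values were 0.5 for Itgb7, 0.16 and 0.3 for the Itgae probes ILMN_2628900 and ILMN_2628899, 1.36 for Itgam and 0.34 for Icam2. Against wild-type replicate 2 alone they were 0.24 for Itgb7, 0.05 for Itgae probe ILMN_2628899, 0.99 for Itgam and 0.13 for Icam2. With array weights they were -0.14 and -0.15 for the Itgae probes ILMN_1217629 and ILMN_2699898. With 1 array left out, the ranges that crossed 0 were -0.24 to 0.25, -0.21 to 0.25 and -0.51 to 0.08 for the Itgae probes ILMN_1217629, ILMN_2699898 and ILMN_2628899, and -0.52 to 0.34 for Itgam. None of the 14 called pathway genes reversed. The cause of these changes was not tested.

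With the replicate number as a block, 2 members (Itgb2 at -0.93, adjusted p = 0.0326, and Vcam1 at 0.82, adjusted p = 0.0479) and 11 higher pathway genes were called. Same-numbered arrays deviated together with correlations of 0.49, 0.32 and -0.31, and 3 of 6 arrays correlated best with their own number, so the numbers were not taken as pairs. Itga4, Itgax and Itgam lie at or near background, which limits them.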
